A study of Mus musculus with 28 samples.

Results

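The replication-dependent histone genes are the clustered genes that supply the core and linker histones to chromatin newly made in S phase. They were taken by symbol from the deposited counts of 28 mouse tumors, as the genes whose symbols start with Hist1h, Hist2h, Hist3h or Hist4h. Of 70 such symbols, 1 that ends in -ps, the mark of a pseudogene, was left out. Of the remaining 69 symbols, 47 had at least 10 estimated counts in at least 1 tumor. These 47 members, of 55341 gene names in the files, are 5 genes of linker histone H1, 11 of H2A, 12 of H2B, 8 of H3 and 11 of H4. The other 22 symbols stayed under 10 counts in every tumor, and 1 of them was listed at 0 throughout. The members just inside the limit were Hist1h2bm, Hist1h2ab and Hist1h2bb, with highest counts of 10.177, 10.249 and 10.269. Just outside it were Hist1h2ag, Hist1h3i and Hist2h2ac, with 9.651, 9.361 and 9.161.

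The tumors were grown under the skin of female BALB/c mice from AB1-HA, a line of mouse mesothelioma cells, and every group carried this same tumor. Mice received PBS (4 tumors), immune checkpoint blockade (ICB, 5 tumors), 5-FU at 75 mg/kg (5 tumors), cisplatin at 6 mg/kg (4 tumors), 5-FU+ICB (5 tumors) or cisplatin+ICB (5 tumors). ICB was anti-CTLA-4 together with anti-PD-L1, each given at 100 µg per dose. Each tumor came from a separate mouse, was taken whole on day 7, and so holds RNA of host cells along with that of the cancer cells. Msln, which marks mesothelial cells, was found in all 28 tumors at 0.499 to 654 CPM (counts scaled to the size of the library), while Upk3b, another mesothelial marker, had 3 counts or fewer in all 28.

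A cell that copies its DNA must package the new strand, and the replication-dependent histone genes are switched on together for that task as S phase begins. Their mRNAs are unusual in that they normally carry no poly(A) tail. They end instead just after a short hairpin, the stem-loop, which is bound by the stem-loop binding protein SLBP and is needed for their processing, translation and rapid decay once replication stops. Some of these genes can also make longer, polyadenylated transcripts, which are known from cells that have left the cell cycle. Mki67, against which the members were set, encodes the proliferation antigen Ki-67.

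The stem-loop is what sets these mRNAs apart from others, and it was searched for after the stop codon of each member's longest coding transcript in the GENCODE M21 annotation of GRCm38. It was found in 34 of the 47 members. The hairpins shown here belong to the H1, H2A and H4 genes with the highest levels, to an H2B gene that was lower after treatment, and to an H3 and an H4 gene with variant letters. Capitals mark the 16 bases of the stem, the loop and the opposite stem, in the order 5′ to 3′ on the strand of the gene.
Hist1h1c, chr13:23739507-23739532, + strand: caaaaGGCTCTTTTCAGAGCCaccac
Hist3h2a, chr11:58955167-58955192, + strand: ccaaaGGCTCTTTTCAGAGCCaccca
Hist1h2bh, chr13:23542923-23542948, − strand: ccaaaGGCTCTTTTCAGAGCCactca
Hist1h3g, chr13:23535884-23535909, + strand: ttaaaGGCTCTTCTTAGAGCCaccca
Hist1h4i, chr13:22040961-22040986, − strand: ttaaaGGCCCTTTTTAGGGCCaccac
Hist1h4j, chr13:21735432-21735457, + strand: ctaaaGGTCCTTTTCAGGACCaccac
The form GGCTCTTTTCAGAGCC was the one in 20 of the 34 members. Across all 21677 protein-coding genes with a stop codon in this annotation, 62 had a hairpin of this kind after it, and 46 of them carried one of these histone symbols.

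The members differ in how far their annotated transcripts go on after the hairpin. In 12 members the transcript ended within 60 bases of it, as the typical histone mRNA does. In 22 members it went on past the hairpin, by 840 bases in Hist1h1c, 1643 in Hist3h2a, 330 in Hist1h4i, 1214 in Hist1h2bh and 4884 in Hist1h1d. Another 4 members, among them Hist1h2bc and Hist2h2be, had a longer transcript that did not hold the hairpin. In 8 members the model stopped at or near the stop codon, and Hist1h2al, which this annotation lists as a processed pseudogene although its symbol does not say so, had no coding transcript. The letters AATAAA or ATTAAA, the usual signal for a poly(A) tail, stood in the last 50 bases of the transcript in 15 members. These included 4 of the 6 members with the highest levels, namely Hist1h1c, Hist3h2a, Hist2h2be and Hist1h4i.

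Promoters from RefSeq (GRCm38.p6, 250 bases before to 50 after the start) were matched to 41 of the 47 members. They were searched on both strands for TATAAA, for CCAAT, for the octamer ATTTGCAT and for the H1 box AAACACA, which do not overlap each other in letters. Those of Hist1h1c, Hist1h2bg and Hist3h2a are printed to show the layout of an H1, an H2B and an H2A gene, with every match in capitals.
Hist1h1c, chr13:23738557-23738856, + strand: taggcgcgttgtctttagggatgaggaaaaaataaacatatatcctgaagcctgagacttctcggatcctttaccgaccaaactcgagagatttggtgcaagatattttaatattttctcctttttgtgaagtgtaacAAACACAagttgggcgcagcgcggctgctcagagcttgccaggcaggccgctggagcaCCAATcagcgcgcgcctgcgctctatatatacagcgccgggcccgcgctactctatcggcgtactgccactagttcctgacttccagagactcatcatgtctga
Hist1h2bg, chr13:23571150-23571449, + strand: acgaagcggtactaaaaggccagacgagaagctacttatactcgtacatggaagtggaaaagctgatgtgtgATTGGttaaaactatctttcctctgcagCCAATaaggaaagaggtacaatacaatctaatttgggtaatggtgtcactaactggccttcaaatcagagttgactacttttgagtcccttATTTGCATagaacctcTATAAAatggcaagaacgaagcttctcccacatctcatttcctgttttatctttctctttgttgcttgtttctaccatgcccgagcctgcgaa
Hist3h2a, chr11:58954435-58954734, + strand: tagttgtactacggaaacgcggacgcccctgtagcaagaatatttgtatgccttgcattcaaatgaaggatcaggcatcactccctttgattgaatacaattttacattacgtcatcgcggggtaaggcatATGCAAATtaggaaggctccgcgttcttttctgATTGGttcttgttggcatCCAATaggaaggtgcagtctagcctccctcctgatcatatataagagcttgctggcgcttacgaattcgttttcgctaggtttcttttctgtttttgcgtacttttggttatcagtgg
CCAAT was present in 82.9% of the 41 member promoters and in 37.4% of all 32851 promoters of this length. It stood in 100% of the H1, H2A, H2B and H3 promoters and in 3 of 10 H4 promoters (30%). TATAAA was present in 53.7% of the members and 13.6% of all promoters. The octamer was present in 24.4% against 1.74%, and all 10 matches fell in the H2A (6 of 10) and H2B (4 of 10) genes. AAACACA stood in 17.1% of the members and in 7.18% of all promoters. The members with it were 4 of 5 H1, 2 of 10 H2A and 1 of 10 H2B promoters. A match here is a description of the letters and not evidence of a bound factor.

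The estimated counts summed to between 23541733 and 33950805 per tumor, so that 3 counts were worth between 0.0821 and 0.159 CPM. A few libraries stood apart in ways that touch these genes. The first is RNA length, taken for each tumor as the mean log2 CPM of 863 genes whose longest transcript exceeds 8000 bases minus that of 3045 genes with 1000 to 2000 bases. This contrast was −2.03 in cisplatin+ICB replicate 1, −1.14 in PBS replicate 2, −0.60 in cisplatin replicate 4 and −0.54 in PBS replicate 1, and between −0.01 and 0.77 in the other 24 tumors. The second is RNA without a poly(A) tail other than histone mRNA, such as the 7SK, 7SL and small nuclear RNAs. The summed level of 19 such genes was 164 CPM in PBS replicate 1, 49.4 in cisplatin+ICB replicate 1, 18.2 in cisplatin replicate 2 and 15.2 in 5-FU+ICB replicate 5, and between 1.36 and 10.1 in the other 24. Malat1 was left out of this sum. With all 20 listed genes in the files the order of the groups was another. Their medians were then 67.0 CPM in PBS, 143 in ICB, 108 in 5-FU, 91.6 in cisplatin, 66.1 in 5-FU+ICB and 187 in cisplatin+ICB. PBS replicate 1 also had 64733 CPM on a ribosomal RNA gene (at most 6063 elsewhere), and 5-FU+ICB replicate 5 had 16.1% mitochondrial counts (at most 6.80% elsewhere). The mitochondrial share also differed between groups, at 1.53% to 2.37% in PBS against 2.69% to 4.82% in ICB and 2.72% to 6.80% in 5-FU, without overlap, and at 2.33% to 16.1% in 5-FU+ICB. Its part in the results was not tested. Calls lost and gained without these libraries are given with the results.

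A small number of members supplied most of the signal. The 6 with the highest levels made up 84.3% of the mean summed CPM, and between 70.1% and 90.3% of it in single tumors. Hist1h1c, which encodes linker histone H1.2, had a mean of 25.6 CPM over the 28 tumors, or 37.5% of the sum. Hist1h2bc (11.2 CPM) and Hist2h2be (6.81 CPM) encode H2B, Hist3h2a (7.65 CPM) and Hist2h2aa2 (3.12 CPM) encode H2A, and Hist1h4i (3.20 CPM) encodes H4. The other 41 members had means of 0.0513 to 0.860 CPM, which correspond to 1.29 to 25.1 counts. By family, H1 made up 39.6% of the summed CPM, H2B 30.3%, H2A 19.9%, H4 7.65% and H3 2.44%. Levels were also compared per length, since the annotated transcripts differ in size. Per kb, Hist1h1c remained first with 16.4 CPM per kb, followed by Hist1h2bc with 9.66, Hist2h2aa2 with 5.90, Hist1h4i with 4.41, Hist3h2a with 3.56 and Hist2h2be with 2.60. No H3 member exceeded 0.549 CPM per kb.

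**Figure D1:**
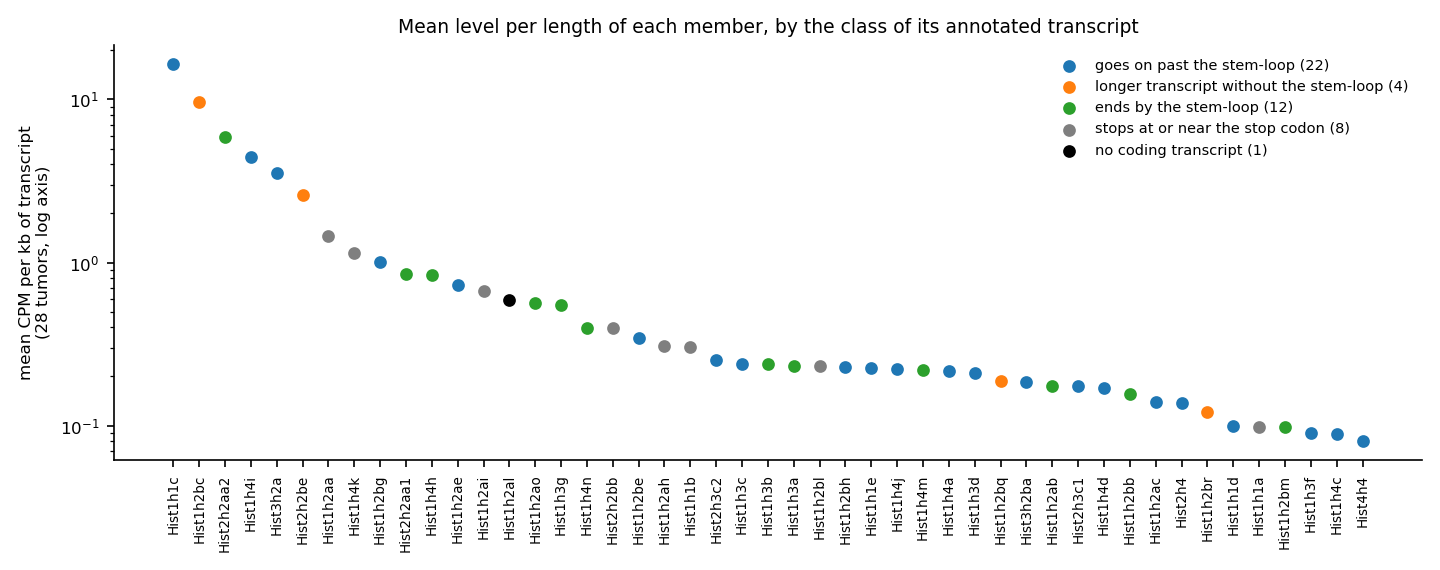
Mean level of each member over the 28 tumors, in CPM per kb of its longest coding transcript on a log axis, with members ordered by level and colored by where the annotated transcript ends. Hist1h1c was the highest at 16.4 CPM per kb, and 5 of the 6 highest members had transcripts that go on past the stem-loop or lack it.

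Transcripts that go on past the stem-loop or lack it accounted for 89.2% of the summed CPM. Members whose transcript ends by the stem-loop accounted for 7.79%, of which Hist2h2aa2 alone gave the larger share. Which form of the mRNA the reads came from cannot be read from gene-level counts. Several members are near copies of each other. In 16 of 47, fewer than 50% of the 100-base windows of the transcript were unique to the gene, and in Hist2h2aa1, Hist2h2aa2, Hist2h3c1 and Hist2h2bb none was. The split of reads within such groups depends on the authors' quantification, so their single-gene levels are uncertain. The 100-base windows of Hist2h2be were all unique.

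The summed CPM of the 47 members was compared across the 6 groups first. It was 98.9, 99.1, 63.3 and 71.6 in the 4 PBS tumors and 51.4, 70.8, 72.7, 43.7 and 62.0 in the 5 ICB tumors. It was 47.3, 36.2, 66.7, 54.9 and 51.2 in the 5-FU tumors and 61.9, 103.2, 71.2 and 88.9 in the cisplatin tumors. It was 61.9, 38.7, 53.0, 48.4 and 97.3 in the 5-FU+ICB tumors and 191, 51.9, 49.4, 58.8 and 46.6 in the cisplatin+ICB tumors. The ICB and 5-FU tumors lay toward the low end and each overlapped the PBS tumors, while 1 cisplatin+ICB tumor exceeded every other tumor of the study. That tumor, replicate 1, also had the highest sums of mesothelial (905 CPM) and erythroid markers (569 CPM) and the lowest of endothelial (25.5 CPM) and fibroblast markers (530.3 CPM). All CPM use library sizes multiplied by a scaling factor, which was 0.685 in this tumor and 0.781 in 5-FU+ICB replicate 5. On total counts without the factor its summed CPM was 131, against 106 in cisplatin replicate 2, and that of 5-FU+ICB replicate 5 was 76.1.

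The mean of the PBS tumors was 83.2 ± 18.5 CPM (SD, n = 4) and that of the cisplatin tumors 81.3 ± 18.4 (n = 4). The single treatments ICB and 5-FU had means of 60.1 ± 12.5 (n = 5) and 51.3 ± 11.1 (n = 5), and the combinations 5-FU+ICB and cisplatin+ICB had 59.9 ± 22.6 (n = 5) and 79.6 ± 62.5 (n = 5). The log2 ratio of means to PBS was −0.70 in 5-FU, −0.47 in ICB and −0.48 in their combination, and −0.03 in cisplatin and −0.06 in cisplatin+ICB. No test was made on this sum. Without cisplatin+ICB replicate 1, the ratio of that group was −0.69. Without the 4 tumors with the least long RNA, the PBS mean was 67.4 from 2 tumors, the ICB mean stayed at 60.1 and the 5-FU mean at 51.3. In whole tumors a lower level can mean fewer cells that express a gene or less RNA per cell, and these cannot be told apart here.

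**Figure D2:**
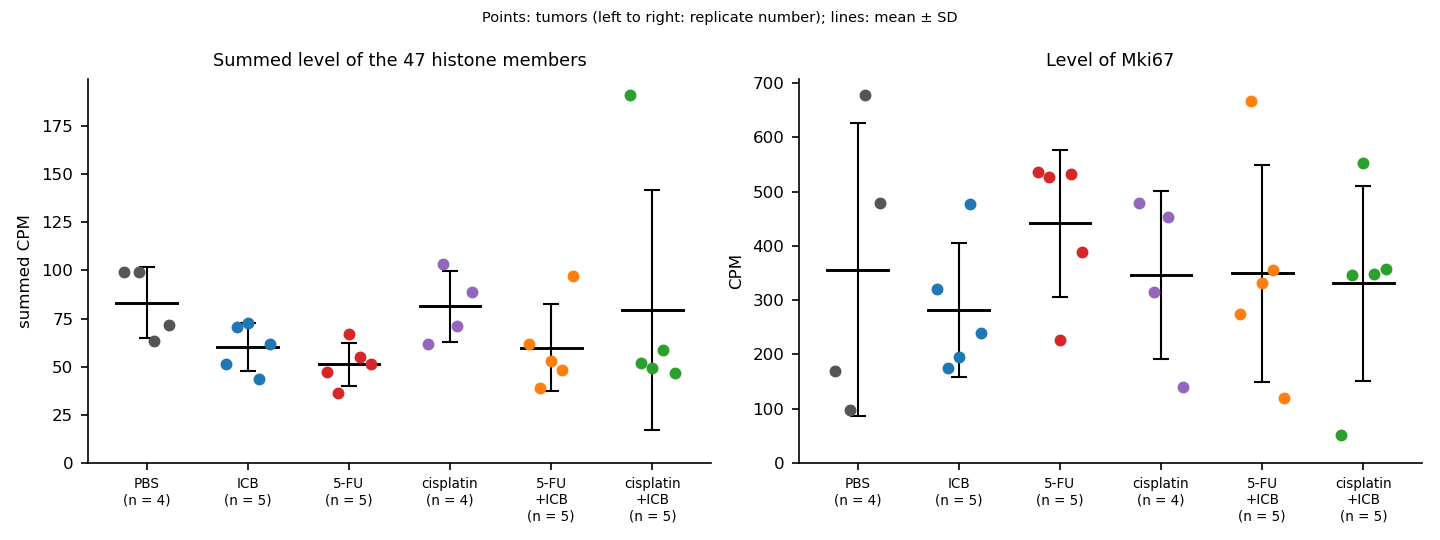
Summed CPM of the 47 members (left) and CPM of Mki67 (right) by treatment group. Points are tumors in order of replicate number, and lines give the mean ± SD. The cisplatin+ICB tumor at 191 summed CPM was also the tumor with the lowest Mki67, at 50.3 CPM.

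Single members were then tested with edgeR's quasi-likelihood test over all 18521 genes that passed a filter on low counts, 31 members among them. A gene was called if its Benjamini-Hochberg adjusted p was under 0.05 and its absolute log2 fold change over 0.5. The filter keeps a gene that is high in 1 group alone, and the 16 members that failed it are too low to be followed. The comparisons with PBS share the same 4 PBS tumors, so they do not support one another.

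ICB against PBS gave the most calls, with 8 of 31 tested members lower (25.8%) and 0 higher. Among all genes tested, 12.5% were lower and 15.5% were higher. The median log2 fold change of the tested members was −1.13, against −0.06 for all genes tested, and 26 of 31 were below 0. The called members were 3 H1, 1 H2A, 2 H2B and 2 H3 genes, all with low counts. The groups did not overlap in 8 members that were lower, where 21.1% of all genes tested were lower without overlap. DESeq2, which tested 46 members, called 11 lower (8.88% of the genes it tested). Without PBS replicate 1 the order turned, with 1 edgeR call in ICB (6.39% of all genes lower) and 3 in 5-FU+ICB (7.23%).

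5-FU against PBS gave 3 lower members (9.68%) and 0 higher, against 1.61% lower and 2.84% higher among all genes tested. The median of the members was −0.67. The 5-FU tumors lay wholly below PBS in 7 members, and in 17.3% of all genes tested. DESeq2 called 5 of 40 members lower (2.03% of its genes). 5-FU+ICB against PBS gave 5 lower members (16.1%) and 0 higher, against 12.5% lower and 18.9% higher among all genes, with a median of −0.61. Its tumors lay wholly below PBS in 3 members, and in 14.3% of all genes tested. DESeq2 called 6 of 47 members lower (8.37% of its genes) and 1 higher (18.8% of its genes). Cisplatin against PBS gave 0 calls in edgeR among the members and 0% among all genes. In it 2 members were under an unadjusted p of 0.05, beside 296 of all 18521 genes tested, and DESeq2 called 0 (0.00274% of its genes lower). The cisplatin tumors lay wholly below PBS in 1 member, Hist2h3c1, and in 1.84% of all genes tested. Cisplatin+ICB against PBS gave 0 member calls in edgeR and in DESeq2 (0.745% of the genes of DESeq2 lower). In it 1 member was under an unadjusted p of 0.05, beside 4170 of all 18521 genes tested. All genes gave 0.939% lower and 3.42% higher in that comparison. Its tumors lay wholly below PBS in 0 members, and in 4.55% of all genes tested.

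**Figure D3:**
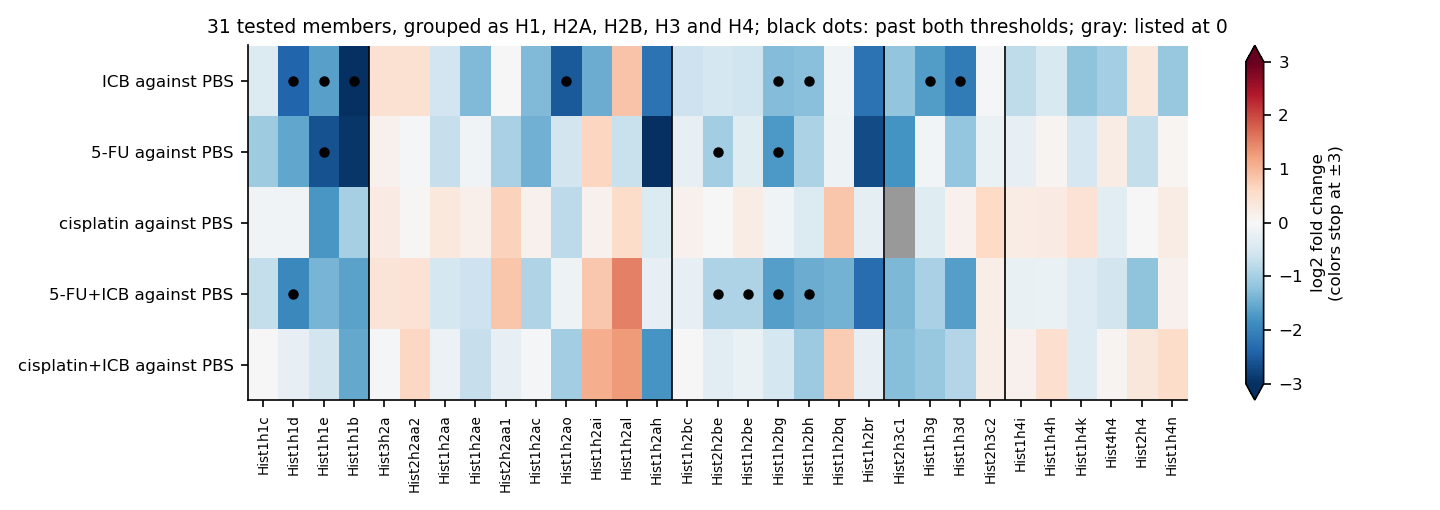
Log2 fold change against PBS of the 31 tested members, as colors from blue (lower) to red (higher) that stop at ±3, with vertical lines between the H1, H2A, H2B, H3 and H4 genes. Black dots mark the 8 members called in ICB, 3 in 5-FU and 5 in 5-FU+ICB, all lower, and gray marks Hist2h3c1 in cisplatin, where all 4 tumors were listed at 0.

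The H1 genes encode the linker histones, which bind the DNA between nucleosomes and compact chromatin. Hist1h1c lies at chr13:23738808-23740367 on the + strand. Its level was 36.4, 41.0, 23.3 and 29.8 CPM in PBS, 20.2, 30.5, 28.9, 16.2 and 26.1 in ICB, and 13.1, 9.84, 20.3, 16.3 and 17.7 in 5-FU. It was 21.3, 41.4, 26.2 and 33.2 CPM in cisplatin, 21.9, 8.52, 17.7, 16.01 and 35.2 in 5-FU+ICB, and 90.2, 22.2, 15.2, 23.1 and 15.1 in cisplatin+ICB. All 5-FU tumors lay below all PBS tumors, and the other groups overlapped PBS. The 5-FU mean was 15.5 ± 4.09 CPM against 32.6 ± 7.72, a log2 fold change of −1.08 (SE 0.42) that did not pass (edgeR adjusted p = 0.112). Without the 4 tumors richest in RNA without a tail it passed in 5-FU, at −0.998, and in 5-FU+ICB, at −0.93.

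Hist1h1d, at chr13:23553262-23560686 on the + strand, encodes H1.3. It had 2.84, 1.02, 0.636 and 0.616 CPM in PBS, 0.550, 0.146, 0.2002, 0.185 and 0.153 in ICB, and 0.121, 0.251, 0.330, 0.313 and 0.722 in 5-FU+ICB. The ICB tumors lay below the PBS tumors, of which replicate 1 was far above the rest, and 1 5-FU+ICB tumor reached into the PBS range. The fall was −2.37 (SE 0.59) on the log2 scale in ICB (edgeR adjusted p = 0.00677) and −1.93 (SE 0.59) in 5-FU+ICB (edgeR adjusted p = 0.0160). In 5-FU it was −1.56 (adjusted p = 0.0962). Without PBS replicate 1 the values were −1.64 in ICB and −1.20 in 5-FU+ICB, and neither passed, while both calls were kept when any other single tumor was left out.

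Hist1h1e encodes H1.4. It had 2.60, 0.568, 0.261 and 0.348 CPM in PBS, 0.293, 0.379, 0.237, 0.307 and 0.252 in ICB, and 0.0581, 0.196, 0.137, 0.283 and 0.101 in 5-FU. Replicate 1 stood above the other PBS tumors, and both treated groups overlapped PBS. It fell by 1.63 (SE 0.60) on the log2 scale in ICB (edgeR adjusted p = 0.0438) and by 2.60 (SE 0.64) in 5-FU (edgeR adjusted p = 0.0266). The ICB call did not pass in 7 of 9 fits that each left out 1 tumor, and the 5-FU call in 4 of 9. Without PBS replicate 1 the ICB value was −0.38 and the 5-FU value −1.35, neither of which passed, and without the 4 tumors with the least long RNA the ICB value was 0.12. Hist1h1b, which encodes H1.5 and was named after its values were seen, had 1.46, 0.474, 0.181 and 0.232 CPM in PBS and 0, 0, 0.0395, 0.152 and 0.151 in ICB. Its fall in ICB was −3.02 (SE 0.91) on the log2 scale, at levels near the worth of 3 counts (edgeR adjusted p = 0.0175). Without PBS replicate 1 it was −2.06 and did not pass.

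H2A pairs with H2B in the outer part of the nucleosome core. Hist3h2a, at chr11:58954685-58956830 on the + strand, did not go the way of Hist1h1c. Its level was 6.93, 6.47, 6.12 and 6.94 CPM in PBS, 8.01, 11.3, 10.9, 5.46 and 9.39 in ICB, and 7.32, 4.56, 9.94, 7.60 and 6.48 in 5-FU. It was 7.84, 9.21, 6.52 and 7.65 CPM in cisplatin, 8.04, 5.01, 7.93, 8.73 and 13.3 in 5-FU+ICB, and 6.25, 5.26, 6.89, 8.31 and 5.67 in cisplatin+ICB. All groups overlapped PBS, and cisplatin+ICB replicate 1 did not stand out. The ICB value was 0.45 (SE 0.25) on the log2 scale and did not pass (edgeR adjusted p = 0.163).

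Hist2h2aa2 had 2.11, 3.50, 1.39 and 3.19 CPM in PBS and 2.195, 4.81, 5.23, 2.84 and 2.22 in ICB. Its highest tumors were cisplatin+ICB replicate 1 with 9.26 CPM, 5-FU+ICB replicate 5 with 8.35 and 5-FU replicate 3 with 6.08. No comparison with PBS passed the test for it (log2 fold changes of −0.06 to 0.63). Hist1h2aa had group means of 0.418 to 0.843 CPM and no call. Hist1h2ao was the called H2A member, named after its values were seen. It had 0.365, 0.501, 0.274 and 0.568 CPM in PBS and 0, 0, 0.219, 0 and 0.150 in ICB. Its ICB value was −2.52 (SE 0.94) on the log2 scale (edgeR adjusted p = 0.0451), and it was lost in 7 of 9 fits that each left out 1 tumor.

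The H2B genes held the calls with the most counts behind them. Hist2h2be lies at chr3:96221119-96223738 on the + strand. It had 8.72, 12.1, 8.60 and 7.74 CPM in PBS, 6.16, 5.31, 7.06, 6.15 and 7.67 in ICB, and 4.82, 5.03, 4.07, 4.95 and 3.55 in 5-FU. It had 7.52, 10.9, 9.33 and 9.57 CPM in cisplatin, 5.13, 4.93, 4.29, 4.70 and 5.34 in 5-FU+ICB, and 16.8, 4.56, 6.24, 5.19 and 4.15 in cisplatin+ICB. Every tumor of the ICB, 5-FU and 5-FU+ICB groups lay below every PBS tumor, and 4 of 5 cisplatin+ICB tumors did so too. The fall was −1.05 (SE 0.29) on the log2 scale in 5-FU (edgeR adjusted p = 0.0385) and −0.93 (SE 0.29) in 5-FU+ICB (edgeR adjusted p = 0.0176). In ICB it was −0.52 (SE 0.29) and did not pass (edgeR adjusted p = 0.159). With single tumors left out the 5-FU value stayed between −1.14 and −0.90, yet it did not pass in 7 of 9 such fits. The 5-FU+ICB value did not pass in 1 of 9, without PBS replicate 2.

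Hist1h2bc, at chr13:23684199-23692908 on the + strand, had 11.9, 16.01, 11.0 and 11.0 CPM in PBS and 7.12, 9.12, 10.47, 5.62 and 8.05 in ICB. The ICB tumors lay below the PBS tumors, with a log2 fold change of −0.63 (SE 0.32) that did not pass (edgeR adjusted p = 0.135). In 5-FU its level was 9.13, 6.99, 13.7, 12.3 and 10.9 CPM, which overlapped PBS. Hist1h2be had 1.07, 1.37, 1.05 and 0.755 CPM in PBS and 0.556, 0.449, 0.571, 0.413 and 0.841 in 5-FU+ICB. It fell by 0.92 (SE 0.32) on the log2 scale in that group (edgeR adjusted p = 0.0304), with 1 tumor overlapping PBS, and did not pass in 5 of 9 fits that each left out 1 tumor.

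Hist1h2bg and Hist1h2bh were named after their values were seen. Hist1h2bg was the member called in all 3 comparisons. It had 1.74, 1.11, 0.643 and 0.801 CPM in PBS, 0.387, 0.339, 0.709, 0.452 and 0.294 in ICB, 0.443, 0.0721, 0.356, 0.222 and 0.528 in 5-FU, and 0.478, 0.425, 0.181, 0.203 and 0.385 in 5-FU+ICB. Both groups with 5-FU lay below all PBS tumors, and 1 ICB tumor overlapped them. The falls on the log2 scale were −1.29 (SE 0.42) in ICB (edgeR adjusted p = 0.0250), −1.72 (SE 0.43) in 5-FU (edgeR adjusted p = 0.0272) and −1.65 (SE 0.43) in 5-FU+ICB (edgeR adjusted p = 0.00649). The last call was kept with any single tumor left out, and the other two did not pass in 4 of 9 such fits each.

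Hist1h2bh had 0.5996, 0.664, 0.646 and 0.763 CPM in PBS, 0.119, 0.188, 0.396, 0.313 and 0.390 in ICB, and 0.237, 0.161, 0.157, 0.404 and 0.256 in 5-FU+ICB. In cisplatin+ICB it had 0.724, 0.203, 0.248, 0.225 and 0.242 CPM. The 4 PBS tumors were close together, ICB and 5-FU+ICB lay wholly below them, and cisplatin+ICB did so except for replicate 1. The falls were −1.25 (SE 0.39) on the log2 scale in ICB (edgeR adjusted p = 0.0210) and −1.48 (SE 0.40) in 5-FU+ICB (edgeR adjusted p = 0.00841). With single tumors left out the ICB call was lost in 1 of 9 fits, without ICB replicate 2, and the 5-FU+ICB call in 0 of 9.

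**Figure D4:**
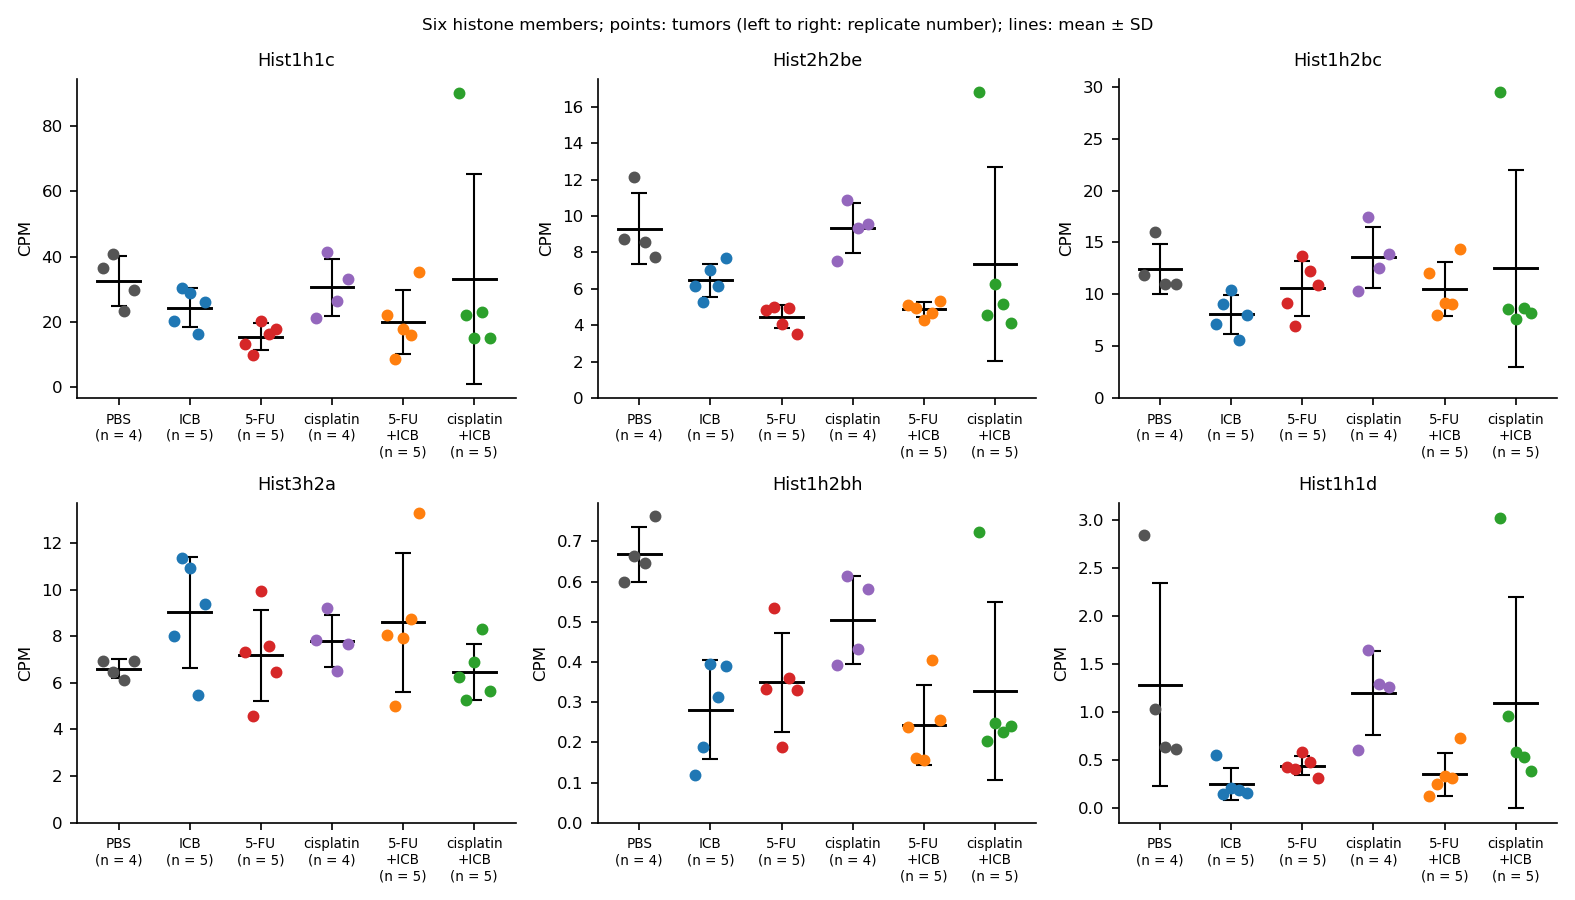
CPM of 6 members by treatment group, with points for tumors in order of replicate number and lines for the mean ± SD. Hist2h2be in 5-FU and 5-FU+ICB lay below all 4 PBS tumors, Hist3h2a overlapped PBS in every group, and cisplatin+ICB replicate 1 was the highest tumor for Hist1h1c, Hist2h2be, Hist1h2bc and Hist1h1d.

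H3 and H4 form the inner tetramer of the nucleosome, and their genes had the lowest sums of the 5 families, although Hist1h4i was among the 6 highest members. Hist1h3g had 0.696, 0.367, 0.380 and 0.341 CPM in PBS and 0.136, 0.0583, 0.3004, 0.169 and 0 in ICB, without overlap. Its ICB value was −1.68 (SE 0.62) on the log2 scale (edgeR adjusted p = 0.0449), and it did not pass in 7 of 9 fits that each left out 1 tumor. Hist1h3d had 0.791, 0.644, 0.195 and 0.186 CPM in PBS and 0.136, 0.0922, 0.0532, 0.232 and 0 in ICB, and 1 ICB tumor overlapped PBS. Its ICB value was −2.09 (SE 0.66) on the log2 scale (edgeR adjusted p = 0.0222), and it did not pass in 4 of 9 such fits. Hist2h3c1, none of whose windows was unique, had 1.46, 0.657, 0.534 and 0.402 CPM in PBS and was listed at 0 in all 4 cisplatin tumors and in 13 of 28 tumors in all. No fold change is given for it in cisplatin.

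No H4 member was called by edgeR in the fit of all 28 tumors, while DESeq2 called Hist1h4d, which failed the filter of edgeR, lower in ICB. Hist1h4i, at chr13:22040636-22041362 on the − strand, had 3.30, 5.19, 3.19 and 2.36 CPM in PBS, 2.53, 1.54, 2.34, 1.397 and 2.53 in ICB, and 8.99, 2.26, 3.37, 2.49 and 2.01 in cisplatin+ICB. The ICB tumors lay low and overlapped PBS, at a log2 fold change of −0.76 (SE 0.36, edgeR adjusted p = 0.104). The value stayed at −0.76 and passed without the 4 tumors richest in RNA without a tail. Hist1h4h had group means of 0.263 to 0.552 CPM and Hist1h4k of 0.188 to 0.588, with wide overlap.

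Fewer members were called without the tumors with the least long RNA, of which 2 were PBS tumors. With the 4 such tumors left out, ICB against PBS had 1 call of 31 tested members, Hist1h2bh at −1.23 (6.54% of all genes lower). 5-FU against PBS had 0 (0.344% of all genes), and 5-FU+ICB had 2, which were Hist1h2bh at −1.46 and Hist2h2be at −0.66 (5.73% of all genes). PBS then has 2 tumors, so a lost call does not by itself show a smaller fall. With the 4 tumors richest in RNA without a tail left out instead, 28 members were tested, and the counts were 7 for ICB (18.4% of all genes lower), 5 for 5-FU (10.2%) and 6 for 5-FU+ICB (14.9%). In ICB only 3 of the 8 calls were kept, those of Hist1h1d, Hist1h2ao and Hist1h2bh. Hist1h1b was no longer tested there, and Hist1h1e at −0.34, Hist1h2bg at −0.93, Hist1h3d at −1.66 and Hist1h3g at −1.35 did not pass. In 5-FU and 5-FU+ICB all 3 and all 5 calls were kept. Calls gained in ICB were Hist1h2ac at −1.27, Hist1h4i at −0.76, Hist1h2bc at −0.61 and Hist2h2be at −0.52, and those gained in 5-FU were Hist1h2ac at −1.41 and Hist1h1c. Cisplatin+ICB against PBS then had 3 lower members, Hist1h2ae, Hist1h2bh and Hist2h2be (13.3% of all genes), where the full set of tumors had 0. Leaving out PBS replicate 1 alone left 1 call in ICB (6.39% of all genes lower), 0 in 5-FU (0.19%) and 3 in 5-FU+ICB (7.23%). Several of the values that no longer passed stayed far from 0, with Hist1h2bg at −1.39 and Hist2h2be at −1.09 in 5-FU and Hist1h3d at −1.68 and Hist1h3g at −1.40 in ICB. Leaving out cisplatin+ICB replicate 1 alone gave 5 calls in cisplatin+ICB against PBS, namely Hist1h2ae at −1.75, Hist1h3g at −1.74, Hist1h2bh at −1.58, Hist2h2be at −0.89 and Hist1h2bc at −0.59, where 18.5% of all genes were lower. Other RNAs without a poly(A) tail were lower in the same comparisons. Of 6 that were tested, 4 were lower in ICB (12.5% of all genes), 2 in 5-FU (1.61% of all genes) and 3 in 5-FU+ICB (12.5% of all genes), with medians of −3.53, −3.05 and −2.79 and 0 higher. In each of these comparisons 5 of the 6 had a log2 fold change below 0. Without PBS replicate 1, where their level was highest, 0 of the 6 were called by edgeR in any of these 3 comparisons, and the medians were −1.25, −0.69 and −0.11. Rn7s1 and Rn7s2, 7SL RNA genes with identical values in every comparison, were both at −4.69 in ICB, −4.62 in 5-FU and −3.55 in 5-FU+ICB, and both overlapped PBS, where their mean was 15.7 ± 28.5 CPM. In cisplatin and in cisplatin+ICB 0 of the 6 were called by edgeR, with 3 under an unadjusted p of 0.05 in each. Of all 18521 genes tested, 296 and 4170 were under it. The part that RNA length and RNA without a tail have in these differences was not tested.

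The effect of adding one treatment to the other was compared next. 5-FU+ICB against ICB gave 0 member calls in edgeR and in DESeq2, against 0.173% lower and 0.0972% higher among all genes in edgeR and 0.513% lower in DESeq2. There 2 of 31 members were under an unadjusted p of 0.05, beside 1689 of all 18521 genes tested. Cisplatin+ICB against ICB gave 0 in both tools (0% of all genes in edgeR and 0.133% lower in DESeq2). There 5 of 31 members were under an unadjusted p of 0.05, beside 3208 of all 18521 genes tested. 5-FU+ICB against 5-FU gave 0 in both (0% of all genes in edgeR and 0.236% lower in DESeq2), with 1 member unadjusted, beside 2595 of all genes. Cisplatin+ICB against cisplatin gave 0 in both (0.0108% of all genes lower and 0.135% higher in edgeR, and 0.171% lower in DESeq2), with 1 member unadjusted, beside 2286 of all genes. Without cisplatin+ICB replicate 1 the last comparison had 4 calls, all lower (6.9% of all genes). Without the 4 tumors with the least long RNA it had 1, Hist2h2be at −0.82 on the log2 scale (edgeR adjusted p = 0.0220), where 0.755% of all genes were lower. The interaction of 5-FU with ICB had 0 calls in edgeR and in DESeq2. In it 7 of 31 members were under an unadjusted p of 0.05, beside 2058 of all 18521 genes tested. That of cisplatin with ICB had 0 calls in both tools and 3 of 31 members under it, beside 1696 of all genes. Calls among all genes were 0% in both interactions in edgeR. DESeq2 tested 27 and 47 members there and called 0.304% and 0.00274% of all genes lower, so whether the drugs change the response of these genes to ICB was not shown either way.

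The members were then set against Mki67. Its level was 170, 97.8, 677 and 480 CPM in PBS, 321, 174, 195, 478 and 239 in ICB, and 536, 527, 226, 533 and 389 in 5-FU. It was 478, 315, 453 and 140 CPM in cisplatin, 275, 668, 331, 355 and 120 in 5-FU+ICB, and 50.3, 347, 554, 348 and 358 in cisplatin+ICB. The PBS tumors alone spanned nearly the whole range, and Mki67 was called in no comparison with PBS (log2 fold changes of −0.34 to 0.31). Top2a, which encodes the topoisomerase of dividing cells, was lower in ICB by a log2 fold change of −0.68 that did not pass (edgeR adjusted p = 0.0984).

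The ratio of the summed CPM to Mki67 was 0.583, 1.01, 0.0934 and 0.149 in PBS, 0.160, 0.407, 0.372, 0.0915 and 0.259 in ICB, and 0.0882, 0.0688, 0.295, 0.103 and 0.132 in 5-FU. It was 0.129, 0.328, 0.157 and 0.633 in cisplatin, 0.225, 0.0580, 0.160, 0.137 and 0.812 in 5-FU+ICB, and 3.801, 0.150, 0.0893, 0.169 and 0.130 in cisplatin+ICB. All groups overlapped PBS, and single tumors decided the means. The log2 ratio of means to PBS was −1.74 in 5-FU, −0.83 in ICB, −0.72 in 5-FU+ICB, −0.56 in cisplatin and 0.92 in cisplatin+ICB. Without the 4 tumors with the least long RNA these were 0.18, 1.09, 1.198, 0.76 and 0.15. With Top2a in place of Mki67 they were −0.17, 0.43, 0.68, 0.12 and 0.67. The sign without the 4 tumors thus changed in 4 of 5 groups, and the ratio gives no direction for any treatment.

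Across the 28 tumors the summed CPM was low where Mki67 was high, with Pearson's r of −0.82 and Spearman's rho of −0.69 on log2 values. The points share the library and its depth, and the 6 groups are pooled. Without the 2 tumors farthest from the median of Mki67, r was −0.69. With each group's mean taken out, it was −0.89. Of the 31 tested members, 28 had a rho with Mki67 below 0, with a median of −0.241 and a range of −0.726 to 0.109. For the sum of the 6 highest members rho with Mki67 was −0.75, and for the sum of the other 41 it was −0.30, which was 0.09 without the 4 tumors with the least long RNA. Against Top2a the summed CPM had r of −0.33 and rho of −0.20, or r of −0.73 with each group's mean taken out, and 11 of the 31 members had a rho below 0.

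Transcript length moved with this relation. The longest transcript of Mki67 has 10061 bases and that of Top2a 5221. The contrast of long against short transcripts had r of 0.85 with Mki67, 0.15 with Top2a and −0.86 with the summed CPM of the members. In the 4 tumors with the least long RNA, Mki67 over Top2a lay between 0.192 and 0.333, and in the other 24 between 0.645 and 1.21, with no overlap. The summed CPM was 88.9 to 191 in those 4 tumors and 36.2 to 103.2 in the others. With those 4 left out, r between the summed CPM and Mki67 was −0.60 and r between Mki67 and Top2a was 0.92. The summed RNA of the 19 genes without a poly(A) tail moved with the members too, at r of 0.75. The part of either in the relation with Mki67 was not tested.

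**Figure D5:**
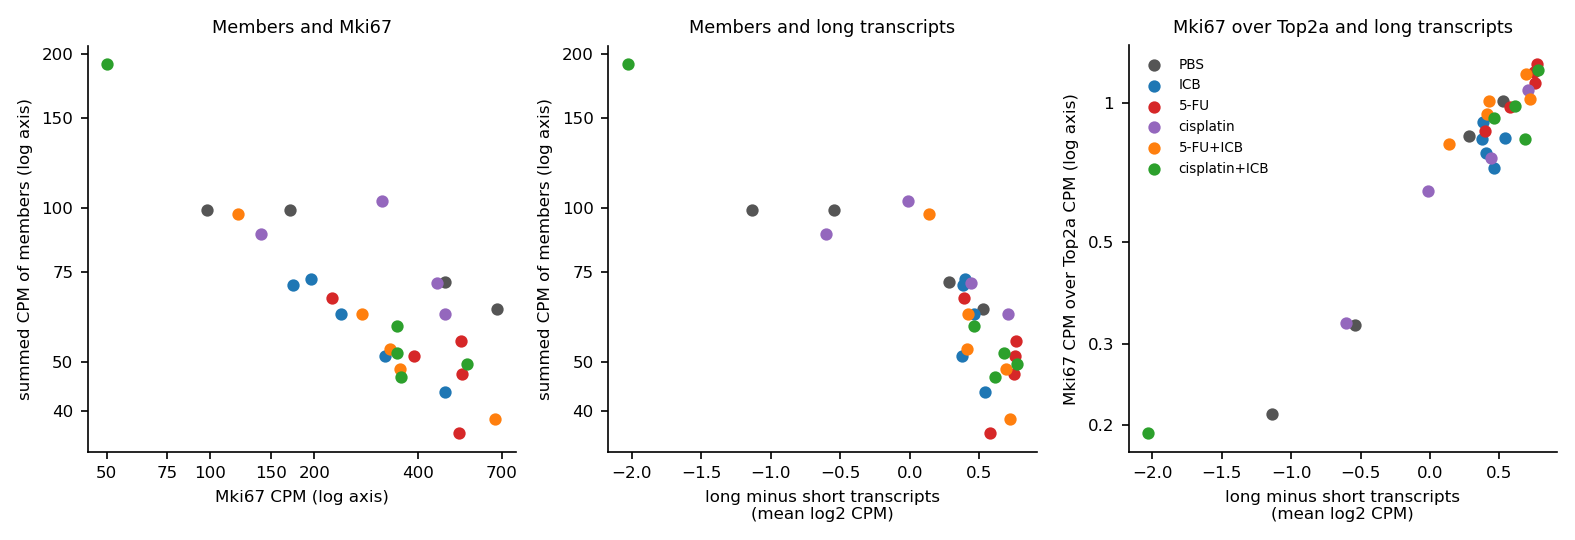
Each point is 1 of the 28 tumors, colored by group: summed CPM of the members against Mki67 CPM (left, log axes), summed CPM against the contrast of long and short transcripts (middle, log vertical axis) and Mki67 over Top2a against that contrast (right, log vertical axis). The 4 tumors left of −0.5 on the contrast had Mki67 over Top2a of at most 0.333, and the other 24 at least 0.645.

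The genes that make, bind and use histones were counted in the same comparisons, from lists fixed with the members. In ICB against PBS, 4 of 19 tested genes of histone mRNA processing and decay were lower (21.1%) and 1 higher, beside 12.5% lower and 15.5% higher among all genes tested. Slbp had 105 ± 6.17 CPM in PBS and 60.03 ± 13.5 in ICB without overlap, a log2 fold change of −0.81 (edgeR adjusted p = 0.00616), and it fell by 0.62 in 5-FU+ICB (edgeR adjusted p = 0.0211). Cstf2, a subunit of the cleavage machinery, was lower in ICB (−0.86), 5-FU+ICB (−0.79) and cisplatin+ICB (−0.66). Tut7, which adds uridines to RNA ends, was higher in ICB (0.66) and 5-FU+ICB (0.57). In 5-FU+ICB, 2 of the 19 were lower, beside 12.5% of all genes, and 1 higher. In 5-FU 0 of the 19 were called in either direction by edgeR. There 5 were under an unadjusted p of 0.05, beside 5433 of all 18521 genes tested.

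Replication-independent histone genes, most of which are expressed outside S phase as well and make mRNA with a poly(A) tail, were lower in 4 of 11 in ICB. Of these 11, 0 were higher, beside 12.5% lower and 15.5% higher among all genes. In 5-FU+ICB 3 were lower and 1 higher, beside 12.5% and 18.9% of all genes. H1f0, a linker histone of resting cells, had 598 ± 88.3 CPM in PBS and 205 ± 52.2 in ICB, a log2 fold change of −1.54, and in 5-FU+ICB it was −1.49. H1fx was lower in ICB (−1.42), 5-FU+ICB (−1.20) and cisplatin+ICB (−1.14). Of 17 genes for chaperones and for the acetyltransferase of new histones, 7 were lower and 1 higher in ICB, and 3 were lower and 1 higher in 5-FU+ICB, where the same shares of all genes apply. Nasp, which carries H1 and H3-H4, was −0.97 in ICB, Asf1b, which hands over H3-H4, was −0.95, and Daxx, which loads the variant H3.3, was higher at 0.53. In 5-FU+ICB Asf1b was −0.81, Chaf1b of the chromatin assembly factor −0.72 and Daxx 0.69. Rbbp7 was the chaperone gene lower in cisplatin+ICB, at −0.62.

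Genes of S phase were lower in 20 of 28 and of mitosis in 12 of 20 in ICB, with 0 higher in either list, against 12.5% lower among all genes. In 5-FU+ICB they were lower in 13 of 28, with 1 higher, and in 10 of 20. Tk1, which encodes thymidine kinase, was −1.53 in ICB and −1.42 in 5-FU+ICB, and Ccne2, which encodes a cyclin of the start of S phase, was −1.63 and −1.66. Cdk1 and Ccnb2, which drive mitosis, were −1.46 and −1.40 in ICB and −1.34 and −1.15 in 5-FU+ICB. E2f2, a transcription factor of the S phase program, was higher in 5-FU+ICB at 1.34. In 5-FU and in cisplatin no gene of either list was called by edgeR. In 5-FU 12 of 28 and 7 of 20 were under an unadjusted p of 0.05, beside 5433 of all 18521 genes tested.

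Markers of infiltrating cells moved with ICB in the same libraries. T cell markers were higher in 7 of 7 and their summed level was 28.2 to 41.7 CPM in PBS and 173 to 694 in ICB. Macrophage markers were higher in 6 of 6, with sums of 1514 to 2249 CPM in PBS and 3335 to 9115 in ICB. Leukocyte markers were higher in 4 of 5, with sums of 485 to 653 CPM in PBS and 1265 to 3028 in ICB. Neutrophil markers were higher in 3 of 4, with sums of 9.09 to 17.9 CPM in PBS and 59.0 to 164 in ICB. Of 6 tested mesothelial markers, 0 were lower and 1 was higher, and the sum of that list was 333 to 479 CPM in PBS and 147 to 300 in ICB. No defining marker of the T cell, macrophage or leukocyte lists was at 0 in any tumor. In 5-FU+ICB markers were higher in 7 of 7 for T cells, 5 of 5 for leukocytes, 4 of 4 for B cells, 4 of 6 for macrophages and 3 of 3 for endothelium, and the T cell sum was 53.0 to 1498 CPM. Of its 6 mesothelial markers 3 were higher and 1 lower, and their sum of 182 to 304 CPM lay wholly below PBS. In 5-FU 0 T cell, leukocyte, B cell, endothelial or fibroblast markers were called by edgeR, and 1 macrophage and 1 mesothelial marker were higher. There 7 of 7 T cell markers and 4 of 4 fibroblast markers were under an unadjusted p of 0.05, beside 5433 of all 18521 genes tested. The 5-FU sums of T cell markers, at 41.9 to 445 CPM, and of endothelial markers, at 121 to 278 CPM against 60.6 to 119 in PBS, lay above PBS without overlap. Its sum of mesothelial markers was 174 to 280 CPM and lay below PBS, and its sum of fibroblast markers was 2312 to 4442 CPM against 641 to 2110 in PBS, both without overlap. In cisplatin+ICB 3 of 4 neutrophil and 2 of 7 T cell markers were higher. The part of cell makeup in the lower histone members was not tested.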

How the data were processed

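RNA was extracted from whole tumors and sequenced as 100-base single-end reads, and the sources used here name no selection of poly(A) RNA. Abundances came from pseudoalignment by kallisto 0.46.0 against mouse transcripts (GRCm38/mm10), and tximport combined them per gene (the submitters' processing notes also name bcl2fastq 2.20.0.422). The gene tables deposited by the authors hold estimated counts that had not been normalized, in 1 matrix per drug. The 9 tumors given PBS or ICB stand in both matrices. A share of 23.7% of all entries was fractional, so each was rounded to a whole number before testing. Another 26 gene names had been turned into dates and were left out of the members. The labels gave groups and replicate numbers, and no batch.

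The 2 matrices were joined. Genes with low counts were removed with filterByExpr, library sizes were normalized by TMM, and all 28 tumors in 6 groups were fitted with edgeR 4.0.16 (glmQLFit and glmQLFTest, R 4.3.3, limma 3.58.1), with Benjamini-Hochberg adjustment over 18521 genes. DESeq2 1.42.0 was an alternative. Values and figures were made with Python 3.11.15, pandas 2.3.3, scipy 1.17.1 and matplotlib 3.10.9. The fit was tested on simulated data. CPM are TMM-scaled. Sums and ratios received no test. Estimated counts of 3 or fewer were taken as the floor, which covers counting error only. Log2 values for correlations were taken of CPM.

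Members and gene lists were chosen with earlier results of these data known. The members named are the 3 with the highest mean CPM of each histone family, together with up to 3 called members per direction and comparison with a mean count of at least 50. Another 4 called members below that count were named after their values were seen, as said beside them. Genes of the other lists were named where they were called with that mean count, up to 2 per direction and comparison. Fits without the libraries that stand apart were added after seeing the data. Other alternatives were another scaling, no filter, each matrix alone, a replicate block, a minimum of 100 counts, no fold change threshold, Top2a in place of Mki67, the mean of log2 CPM and each tumor left out in turn.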

Additional observations from a re-analysis of the deposited data

Results flagged for a closer look

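Within each group of 4 or 5 tumors, the highest and lowest tumor of 15 measures were compared with the rest by Dixon's criterion, which chance meets in about 1 in 20 groups. Of 90 groups, 16 met it, 10 of them through cisplatin+ICB replicate 1 and 3 through 5-FU+ICB replicate 5. Most of the measures share members and thus tumors that stand apart, so 16 cannot be read against 1 in 20. Cisplatin+ICB replicate 1 stood above its group in the summed CPM of the members (191), in that sum over Mki67 (3.801), and in the sums of the H1 members (95.9 CPM), the H2B members (51.7 CPM), the H4 members (15.9 CPM) and the members with a short annotated transcript (22.9 CPM). Among single members it stood apart in Hist1h1c (90.2 CPM), Hist1h2bc (29.5 CPM), Hist2h2be (16.8 CPM) and Hist1h4i (8.99 CPM). Cell markers of cisplatin+ICB replicate 1 stood apart too, with a mesothelial sum of 905 CPM (at most 479 in the other 27 tumors), an erythroid sum of 569 (at most 176), an endothelial sum of 25.5 (at least 60.6) and a fibroblast sum of 530.3 (at least 641), and their part in its histone values was not tested. 5-FU+ICB replicate 5 stood apart in the sum over Mki67 (0.812), the H2A members (27.9 CPM) and the H3 members (3.11 CPM). 5-FU replicate 3 stood apart in the sum over Mki67 (0.295) and in the members with a short transcript (10.6 CPM), and PBS replicate 1 in the H3 members (5.53 CPM).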

How the results depend on the processing

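Counts of called members moved with the processing, and the cause was not tested. The share of all genes that was lower in the same setting stands in parentheses. Against 8 calls for ICB against PBS (12.5%), DESeq2's size factors gave 5 (9.16%), no filter 5 (3.05%), the replicate block 5 (7.25%), the matrix of the cisplatin groups alone 4 (10.7%), that of the 5-FU groups alone 10 of 23 tested (18.8%), leaving out the 2 tumors richest in RNA without a tail 2 (14.4%) and the 4 with least long RNA 1 (6.54%). Only 6 members reached 100 counts, tested in the same fit, and 0 of these 6 were called by edgeR for ICB. Against 3 for 5-FU (1.61%), DESeq2 gave 5 (2.03%), the matrix of the 5-FU groups 5 (13%), leaving out the 4 tumors richest in RNA without a tail 5 (10.2%), no filter 1 (0.245%), at least 100 counts 1 of 6, the replicate block 0 (0.54%) and leaving out the 4 with least long RNA 0 (0.344%). For 5-FU, DESeq2's size factors gave 2 (1.04%) and leaving out the 2 richest 2 of 30 tested (8.08%). Against 5 for 5-FU+ICB (12.5%), the replicate block gave 3 (8.86%), leaving out the 2 richest 3 (14.4%), the 4 with least long RNA 2 (5.73%) and at least 100 counts 1 of 6. Cisplatin+ICB against PBS had 3 without the 2 (11.5%) or 4 richest (13.3%), and against cisplatin 2 without the 2 richest (3.62%) and 1 without the 4 with least long RNA (0.755%). The comparisons of 5-FU+ICB with ICB or 5-FU, of cisplatin with PBS, and of cisplatin+ICB with ICB, and the interactions, had 0 in these settings. With single tumors left out, the counts ranged from 1 to 6 for ICB (5.64% to 13.4% of all genes lower), 0 to 4 for 5-FU (0.19% to 1.63%), 3 to 7 for 5-FU+ICB (6.61% to 19.1%), 0 to 5 for cisplatin+ICB against PBS (0.0211% to 18.5%), 0 to 1 for 5-FU+ICB against 5-FU (0% to 1.97%) and 0 to 4 for cisplatin+ICB against cisplatin (0% to 6.9%).

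The mean of log2(CPM + 2) over the members differed from PBS by −0.14 in ICB and −0.14 in 5-FU. The added 2 CPM exceeds the mean of 41 of the 47 members and shrinks these differences, so they are not log2 ratios and cannot be set beside those of the sum. Over Top2a the 5-FU ratio was −0.17, and those of ICB, cisplatin and 5-FU+ICB turned to 0.43, 0.12 and 0.68. Without the 4 tumors with least long RNA, the ratio over Mki67 was 1.09 for ICB, 0.18 for 5-FU and 1.198 for 5-FU+ICB, and for cisplatin+ICB −0.94 against ICB and −0.61 against cisplatin. Without the 4 richest in RNA without a tail, it was −1.64 for cisplatin+ICB against PBS, −0.94 against ICB and −1.19 against cisplatin. Single tumors moved these last 3 between −1.77 and 1.66, −0.94 and 2.04, and −1.21 and 2.08. Hist1h1e in ICB was 0.12 without the 4 with least long RNA.

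The sign of Mki67 was not stable. It was 0.0153, 0.0131 and 0.10 for cisplatin with DESeq2's size factors, DESeq2 and the block. For 5-FU+ICB it was 0.0743, 0.0717 and 0.12 there, 0.0595 with no filter, 0.0330 in its matrix and 0.0404 without the 4 richest. For cisplatin+ICB against PBS it was 0.0358, 0.0318 and 0.0299, 0.0073 with no filter, and 0.0631 and 0.0251 without the 4 and 2 richest. Against cisplatin it was 0.0205 and 0.0186, 0.0083 with no filter, 0.24 and 0.27 without the 4 and 2 richest and 0.0069 without the 4 with least long RNA, where 5-FU was −0.34. Single tumors moved Mki67 between −0.66 and 0.17 in ICB, −0.0046 and 0.83 in 5-FU, −0.35 and 0.48 in cisplatin, −0.40 and 0.49 in 5-FU+ICB and −0.42 and 0.41 in cisplatin+ICB against PBS, −0.0596 and 0.59 in 5-FU+ICB against ICB, −0.0286 and 0.51 in cisplatin+ICB against ICB, and −0.33 and 0.21 against cisplatin.

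Replicate numbers did not pair the tumors: same-numbered tumors correlated at a median of −0.019, other pairs at 0.007, and 5 of 28 correlated best with their own number.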
